A study of Mus musculus with 8 samples.

Results

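The genes described here are 10 members of the TGF-beta family and its receptors, out of 23535 genes with values, measured in mouse heart ventricles at postnatal day 21. They are the 6 ligand genes Tgfb1, Tgfb2, Tgfb3, Inhba, Gdf15 and Mstn, the 2 latent binding protein genes Ltbp1 and Ltbp3, and the 2 receptor genes Tgfbr1 and Tgfbr2. They were chosen by name, with earlier results of these data known, and each occurred in 1 row of the deposited table. The 4 knockout libraries (Med1cKO) came from ventricles of mice lacking Med1 in the heart, and the 4 WT libraries from mice with floxed, intact Med1. All mice were of the C57BL/6 background. The Med1 protein belongs to Mediator, which relays signals from bound transcription factors to RNA polymerase II. The promoter that drove the deletion, the part of Med1 removed and whether each library came from a single animal are not stated in the labels. If libraries of a group shared an animal, their p-values reflect only technical spread.

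TGF-beta ligands are secreted as latent complexes. The growth factor stays bound to its own propeptide, and the propeptide is tied to the matrix by a latent TGF-beta binding protein until integrins or proteases free it. The freed dimer binds the type II receptor, which phosphorylates the type I receptor, and this in turn phosphorylates SMAD proteins that enter the nucleus. In the heart the pathway is best known for activating fibroblasts and for matrix deposition after injury. Activins and myostatin use related receptors, while GDF15 is a distant member of the family that is released by stressed cells and acts through a receptor in the hindbrain.

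The pairs Tgfb2 with Tgfb1 and Ltbp3 with Ltbp1 differed in how they moved, so the 250 bases upstream of their transcription starts are shown. They are RefSeq sequences of GRCm38.p6, the same assembly as mm10, printed 5′ to 3′ on the gene's strand. Capitals mark matches to any of 10 short motifs searched on both strands.
Tgfb2: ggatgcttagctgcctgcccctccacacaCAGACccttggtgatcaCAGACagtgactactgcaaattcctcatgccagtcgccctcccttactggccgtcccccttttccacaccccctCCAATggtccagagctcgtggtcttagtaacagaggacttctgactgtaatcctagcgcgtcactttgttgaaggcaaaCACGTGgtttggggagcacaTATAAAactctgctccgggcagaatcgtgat
Tgfb1: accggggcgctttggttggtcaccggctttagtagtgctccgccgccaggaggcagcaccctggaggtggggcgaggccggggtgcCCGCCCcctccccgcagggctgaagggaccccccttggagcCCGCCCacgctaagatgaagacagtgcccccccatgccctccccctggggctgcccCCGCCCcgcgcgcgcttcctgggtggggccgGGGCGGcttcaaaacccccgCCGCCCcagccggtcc
Ltbp3: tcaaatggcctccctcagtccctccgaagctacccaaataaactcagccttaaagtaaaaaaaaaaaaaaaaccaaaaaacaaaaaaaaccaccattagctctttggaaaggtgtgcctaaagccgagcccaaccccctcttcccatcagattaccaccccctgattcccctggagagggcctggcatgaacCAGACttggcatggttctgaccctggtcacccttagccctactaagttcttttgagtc
Ltbp1: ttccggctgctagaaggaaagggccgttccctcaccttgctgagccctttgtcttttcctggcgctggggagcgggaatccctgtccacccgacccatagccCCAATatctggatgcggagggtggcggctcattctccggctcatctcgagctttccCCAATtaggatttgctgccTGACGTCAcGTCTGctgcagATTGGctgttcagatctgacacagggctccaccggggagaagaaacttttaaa

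The Tgfb2 window (chr1:186705990-186706239, minus strand) held a TATA box (TATAAA) whose first base lay at -31 from the start and an E-box (CACGTG) at -51. Of 32851 mouse windows of this length, 12.4% held the first of these motifs and 6.02% the second. It also held CCAAT once and the SMAD half-site CAGAC in 2 places, motifs present in 33.8% and 42.2% of windows. The Tgfb1 window (chr7:25686752-25687001, plus strand) had a GC content of 75.2%, against 53.6% for Tgfb2 and a median of 52.4% over all windows. Its matches were 5 GC boxes (GGGCGG), a motif found in 32.7% of windows. The Ltbp3 window (chr19:5740650-5740899, plus strand) held 1 SMAD half-site and no other motif searched. The Ltbp1 window (chr17:75005279-75005528, plus strand) held the cyclic AMP response element TGACGTCA, present in 1.55% of windows, with 3 CCAAT boxes and 1 SMAD half-site. The other motifs searched were the AP-1 site TGACTCA (4.46% of windows), the SMAD palindrome GTCTAGAC (0.167%), the C/EBP-ATF element TGATGNAA (3.45%) and the TEAD site CATTCC (12.6%). No motif searched overlapped another in these 4 windows. Windows were matched for 9 of the 10 members, Tgfb3 being the exception. For Gdf15 and Inhba the RefSeq starts lay 460 to 2624 bases from the gene start in the deposited table, so their windows are not shown. These matches describe the letters of the windows only.

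Values are FPKM (fragments per kilobase of transcript and per fixed number of mapped fragments), so levels can be compared between genes per length. Their totals were 481719 to 502629 in the knockout libraries and 507484 to 536174 in WT, and the number of fragments sequenced is unknown. Med1 itself was at 7.80 to 9.15 FPKM in the knockout and 10.6 to 16.8 FPKM in WT. The knockout mean was 56.3% of WT (exact two-sided permutation p = 0.0286, the smallest that 70 assignments of 4 against 4 libraries allow). The ventricular transcriptome differed widely. In limma on log2(FPKM + 1), 44.9% of the 11975 genes averaging 1 FPKM or more were higher in the knockout and 16.4% lower at an adjusted p under 0.05. The median gene was 0.25 higher in the knockout on that log2 scale. Scaling the libraries to a common median of ratios moved it to 0.01, with 27.0% of genes higher and 26.9% lower, so both scalings are given where they differ. Cardiomyocyte markers, 6 genes in all, summed to 14630 to 22270 FPKM in the knockout and 42920 to 48470 FPKM in WT and were abundant in both, with all 6 lower in the knockout (5 after quantile normalization). In whole ventricle, fewer cells of a type and less RNA per cell cannot be told apart.

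Of the 10 members, 8 averaged 1 FPKM or more across the 8 libraries and were tested. Higher expression in the knockout was called for 7 of the 8, none was called lower, and Ltbp1 did not pass. The background share of genes called higher was 44.9%. Gdf15 reached the minimum only through its knockout libraries, and of the other 7 tested members 6 were called higher. After rescaling 6 of 8 were called higher, with a background of 27.0%, and after quantile normalization again 6, with a background of 28.7%. The member lost was Tgfb1 in both. The median log2 change of the tested members was 1.30 as deposited and 1.04 rescaled. The 4 knockout libraries lay wholly above the 4 WT libraries for 7 of the 8 tested members, where this held for 41.7% of all genes tested, and also for Inhba, which was below the minimum. After rescaling it held for 5 of the 8, namely Tgfb2, Tgfb3, Gdf15, Ltbp3 and Tgfbr1, against 25.7% of all genes.

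**Figure D1:**
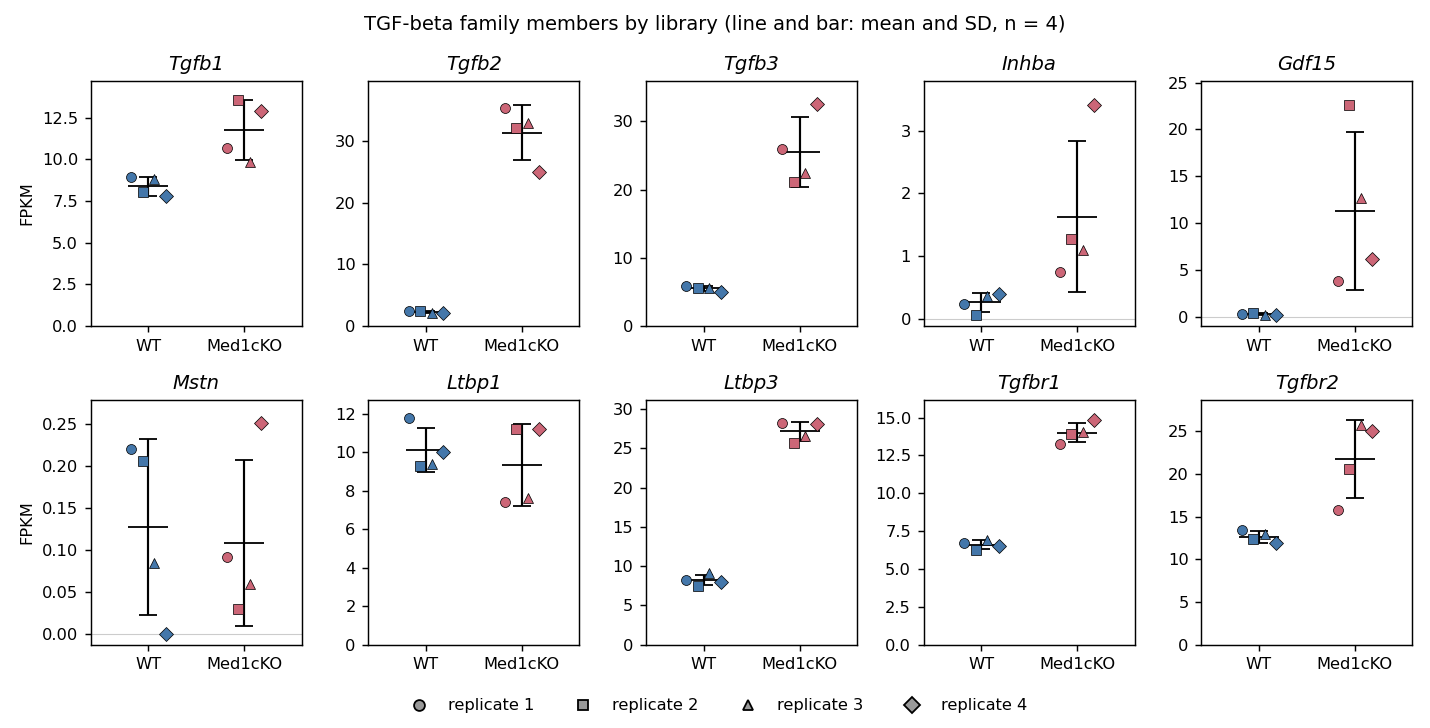
FPKM of the 10 members in WT and Med1cKO ventricles, 1 panel per gene with its own axis; points are libraries, lines and bars the mean and SD (n = 4). The groups are apart for every gene except Mstn and Ltbp1, and Gdf15 and Inhba are widely spread among the knockout libraries.

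Tgfb2 rose most of the tested members on the log2(FPKM + 1) scale. It encodes the TGF-beta isoform needed for valve and septum formation in the embryonic heart. The 4 WT libraries had 2.44, 2.40, 2.03 and 2.18 FPKM and the 4 knockout libraries 35.3, 32.1, 32.9 and 24.9 FPKM. Every knockout library was thus far above every WT library, with the lowest value in knockout 4. The means were 2.26 ± 0.190 and 31.3 ± 4.45 FPKM (SD, n = 4), a ratio of 13.9. The log2 change was 3.30 ± 0.109 (SE, limma adjusted p = 2.16e-07), and 34 of 11975 genes had a larger one. Its locus is chromosome 1, 186623186 to 186705992, minus strand (mm10). The antisense gene Gm29491 overlaps its exons in the GENCODE annotation. The libraries were strand-specific, but the labels do not say whether counting used strand.

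Tgfb3 rose as well. It encodes a close relative of TGF-beta 2 with roles in palate and mesenchyme. WT libraries had 5.87, 5.598, 5.59 and 5.06 FPKM and knockout libraries 26.0, 21.1, 22.4 and 32.5 FPKM. The highest knockout value was in knockout 4, the library with the least Tgfb2. The mean was 4.61 times that of WT, and the log2 change was 2.0 ± 0.126 (SE, limma adjusted p = 2.79e-06). On chromosome 12 (86056743 to 86079041, minus strand) its exons overlap those of Gm37804 and Gm48008 on the plus strand.

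Tgfb1, the isoform made by many cell types including platelets and macrophages, was much steadier. Its WT values were 8.95, 8.02, 8.79 and 7.78 FPKM and its knockout values 10.7, 13.6, 9.84 and 12.9 FPKM. The groups did not overlap, yet the highest WT and the lowest knockout library were less than 1 FPKM apart. The log2 change of 0.43 ± 0.107 passed as deposited (limma adjusted p = 0.00609). It fell to 0.18 after rescaling (adjusted p = 0.194) and 0.19 after quantile normalization (adjusted p = 0.157), and the authors' deposited table did not call it (q = 0.351). Whether Tgfb1 changed therefore depends on how the libraries are scaled.

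Ratios within a library do not depend on that scaling. The Tgfb2 to Tgfb1 ratio was 0.231 to 0.299 in WT and 1.93 to 3.35 in the knockout. It differed by 3.31 on the log2 scale, or 9.89-fold. The Tgfb3 to Tgfb1 ratio was 0.635 to 0.698 in WT and 1.56 to 2.51 in the knockout, a log2 difference of 1.71. Both ratios gave the smallest exact two-sided permutation p, 0.0286 (0.0381 after Benjamini-Hochberg adjustment over the 4 ratios tested). The summed FPKM of the 3 ligand genes was 16.2 ± 0.932 in WT and 68.6 ± 3.09 in the knockout (SD, n = 4). Tgfb1 made up 51.8% ± 1.42 of that sum in WT and 17.2% ± 2.64 in the knockout. For Tgfb2 the shares were 13.99% ± 1.12 and 45.8% ± 6.96, and for Tgfb3 34.2% ± 0.542 and 37.1% ± 6.35, the last overlapping between groups.

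**Figure D2:**
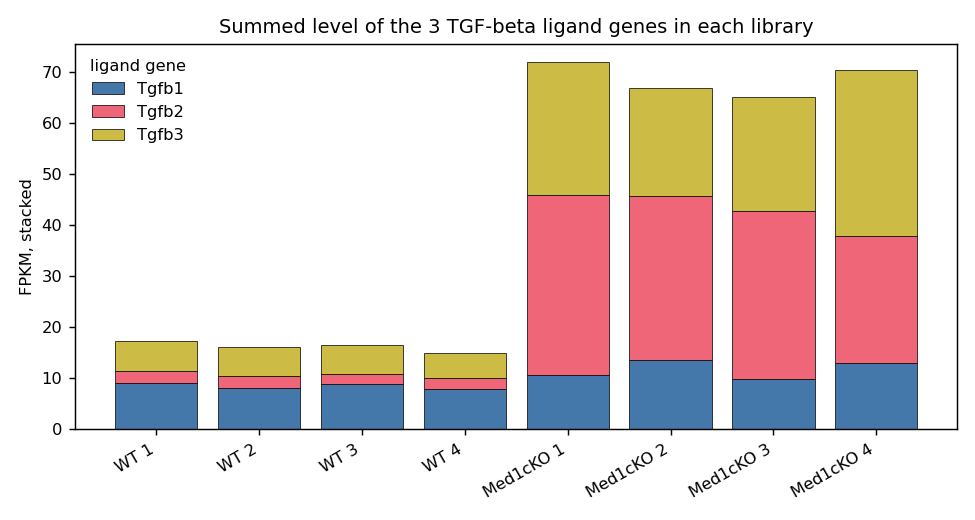
Stacked FPKM of Tgfb1, Tgfb2 and Tgfb3 in each of the 8 libraries. The bars reach 15.0 to 17.3 FPKM in WT and 65.2 to 71.9 FPKM in the knockout, where Tgfb2 and Tgfb3 fill most of each bar.

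Gdf15, the stress-released ligand, was close to the bottom of the range in WT. The 4 WT libraries had 0.348, 0.405, 0.233 and 0.170 FPKM, and the 4 knockout libraries 3.82, 22.6, 12.7 and 6.15 FPKM. The groups were widely apart, but the knockout libraries themselves differed 5.92-fold, with knockout 2 highest and knockout 1 lowest. The means were 0.289 ± 0.107 and 11.3 ± 8.42 FPKM (SD, n = 4), a ratio of 39.1. On the log2(FPKM + 1) scale the change was 3.0 ± 0.418 (SE, limma adjusted p = 0.000232), which understates low genes. With a pseudocount of 0.1 FPKM it was 4.60. The authors' deposited table gave a log2 fold change of 5.03. Its locus is chromosome 8, 70629394 to 70631635, minus strand (mm10).

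A list of stress genes was looked at beside Gdf15. It holds factors and targets of p53 and of the integrated stress response, both known to raise Gdf15 in other settings, and an immediate early gene. Of 16 measured, 10 rose and 2 fell, or 62.5% and 12.5% beside 44.9% and 16.4% of all genes, with a median log2 change of 0.72. After rescaling 8 rose and 2 fell, where 27.0% of all genes rose and 26.9% fell. Cdkn1a, a cell cycle inhibitor, rose from 16.1 ± 0.950 to 205 ± 33.9 FPKM (SD, n = 4). The transcription factor gene Atf3 rose from 4.94 ± 2.33 to 43.0 ± 29.1 FPKM, and the p53 target Phlda3 by 2.66 on the log2 scale. Atf4 and Ddit3, which encode central factors of the integrated stress response, rose by 0.85 and 0.64. Chac1, their target, and Ccng1, a p53 target, fell by 1.17 and 0.91. Trp53 itself, at a log2 change of 0.30, did not pass (limma adjusted p = 0.0769), but passed without knockout 1 (0.40, adjusted p = 0.0147).

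The stress genes did not share one order over the knockout libraries. Atf3 had 21.4, 84.5, 41.9 and 24.4 FPKM in knockout 1 to 4, so that knockout 2 was highest and knockout 1 lowest, as for Gdf15. Cdkn1a had 231, 192, 233 and 163 FPKM, a different order. After subtraction of the group means, the genes whose log2(FPKM + 1) correlated most with Gdf15 over the 8 libraries were Yipf7, Synpo2l and Ppp1r13l, with Pearson's r of 0.989, 0.987 and 0.982. For Tgfb2 they were Dbnl (0.995), a gene whose symbol a spreadsheet had turned into a date (0.989) and Ppp6r2 (0.977). For Tgfb3 they were Ms4a6d, Agpat4 and Hyal1 (0.992, 0.991 and 0.991). These genes were picked as the best of all genes tested over 8 libraries, which they share, and no correlation was tested. With the group means removed, they need not change between the groups as the member does. Yipf7 was lower in the knockout (28.6 FPKM against 109 in WT, log2 change -1.93). Dbnl, Ppp6r2 and Agpat4 were higher (log2 change 1.17, 0.27 and 0.71), and the others did not pass.

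Inhba encodes the beta A subunit of activin and inhibin. Its mean over all libraries was 0.947 FPKM, below the minimum for the test over all genes. The WT libraries had 0.234, 0.0544, 0.365 and 0.400 FPKM and the knockout libraries 0.740, 1.28, 1.10 and 3.41 FPKM. All knockout libraries were above WT, and knockout 4 was far above the other knockout libraries. The exact two-sided permutation p was 0.0286, and without the expression minimum limma gave a log2 change of 0.97 ± 0.269 (SE, adjusted p = 0.0202). In that fit 30.3% of genes were called higher. The authors' deposited table also called it higher (q = 0.00308). Mstn, which encodes the muscle growth inhibitor myostatin, was barely detected. It was listed at 0 in WT 4 and at no more than 0.251 FPKM in any library, and its groups overlapped (exact two-sided permutation p = 0.886). Skeletal muscle markers, a possible source of Mstn, summed to 1.46 to 2.71 FPKM over 8 genes in WT and 4.83 to 14.2 FPKM in the knockout, with the myogenic factor Myog at 0 in every library. Most of the knockout sum was Tnnt3 (mean 5.88 FPKM, 0.286 in WT), and Mylpf was higher too. The myosin genes went the other way. Myh4 was lower in every knockout library than in any WT library, and the means of Myh1 and Myh2 were lower with overlapping libraries. The part of skeletal muscle in the Mstn values was not tested.

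The latent binding protein genes parted. Ltbp3 rose from 8.21, 7.49, 9.08 and 8.02 FPKM in the WT libraries to 28.3, 25.7, 26.5 and 28.1 FPKM in the knockout libraries. It was the tightest of the members in the knockout, with a coefficient of variation of 4.58%. The log2 change was 1.62 ± 0.0755 (SE, limma adjusted p = 7.43e-07). Its locus is chromosome 19, 5740904 to 5758532, plus strand (mm10).

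Ltbp1, which like Ltbp3 ties the latent complex to the matrix, had 11.8, 9.28, 9.41 and 10.02 FPKM in WT and 7.39, 11.2, 7.64 and 11.2 FPKM in the knockout. The knockout libraries split into a pair below WT and a pair within its range. The log2 change was -0.12 with a 95% interval of -0.45 to 0.21 (limma adjusted p = 0.497), and after rescaling -0.37 with an interval of -0.71 to -0.04 (adjusted p = 0.0592). The authors' deposited table called Ltbp1 lower in the knockout (q = 0.0138). Its log2 fold change of -0.39 was close to the rescaled value, so the 2 differ in the call more than in the size of the change. The Ltbp1 to Ltbp3 ratio was 1.04 to 1.44 in WT and 0.261 to 0.435 in the knockout. This is a log2 difference of -1.87 (exact two-sided permutation p = 0.0286, 0.0381 adjusted over the 4 ratios).

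Both receptor genes rose, the type I receptor more evenly than the type II receptor. Tgfbr1, the type I receptor, had 6.72, 6.24, 6.93 and 6.51 FPKM in WT and 13.3, 13.9, 14.03 and 14.8 FPKM in the knockout. This was a rise of 0.98 ± 0.0680 on the log2 scale (SE, limma adjusted p = 4.75e-06). Tgfbr2, the type II receptor that binds ligand first, had 13.5, 12.3, 13.0 and 11.9 FPKM in WT and 15.8, 20.6, 25.7 and 25.0 FPKM in the knockout. Its rise was spread from just above WT in knockout 1 to far above it in knockout 3 and 4. The log2 change was 0.72 ± 0.140 (SE, adjusted p = 0.0017), and 0.45 after rescaling (adjusted p = 0.0205 in limma). The Tgfbr2 to Tgfbr1 ratio was 1.83 to 2.005 in WT and 1.19 to 1.83 in the knockout, a log2 difference of -0.33 (exact two-sided permutation p = 0.0571, also after adjustment). Knockout 3 was the only knockout library inside the WT range (1.834, lowest WT library 1.828), so leaving it out parts the groups. The difference was then -0.42 and the adjusted exact p 0.0286, the smallest that the remaining libraries allow.

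**Figure D3:**
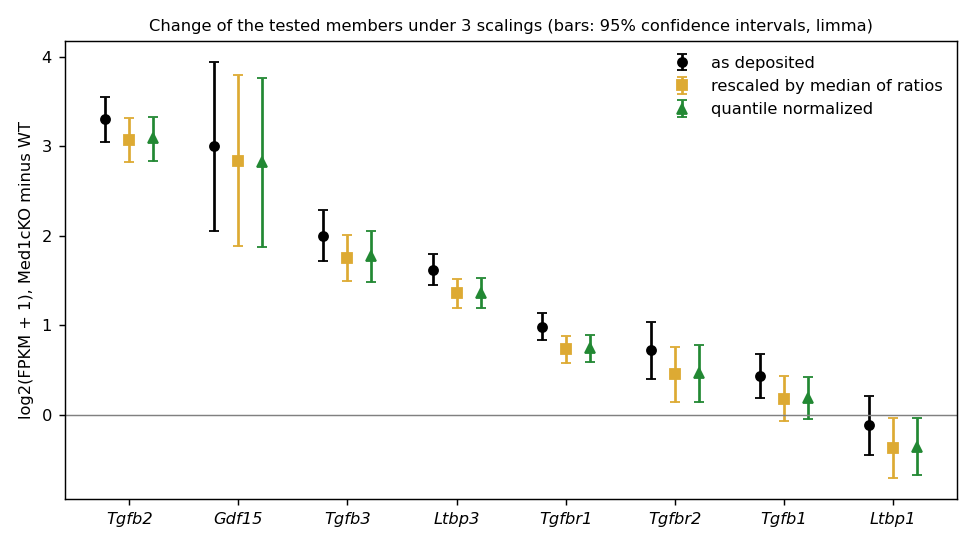
Log2 change (Med1cKO minus WT) of the 8 tested members with 95% confidence intervals from limma, as deposited, rescaled by median of ratios and quantile normalized. The rescaled values sit lower by about the shift of the median gene, the interval of Tgfb1 then includes 0, and that of Ltbp1 then lies below 0 (-0.71 to -0.04 rescaled), though its adjusted p is 0.0592.

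The order of levels changed between the groups. In WT the means descended from Tgfbr2 (12.7 FPKM) through Ltbp1 (10.1), Tgfb1 (8.39), Ltbp3 (8.20), Tgfbr1 (6.60), Tgfb3 (5.53) and Tgfb2 (2.26) to Gdf15, Inhba and Mstn (0.289, 0.263 and 0.128). Of neighbours in that order, Tgfb1 and Ltbp3 overlapped in range, as did Gdf15 with Inhba and Inhba with Mstn. In the knockout Tgfb2 was first (31.3 FPKM), before Ltbp3 (27.2), Tgfb3 (25.5), Tgfbr2 (21.8), Tgfbr1 (14.01), Tgfb1 (11.8), Gdf15 (11.3), Ltbp1 (9.36), Inhba (1.63) and Mstn (0.108). There the ranges overlapped between each neighbouring pair from Tgfb2 to Tgfbr2 and from Tgfbr1 to Ltbp1.

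Members did not rise together within the knockout group. Knockout 4 had the highest Tgfb3, Inhba and Mstn and the lowest Tgfb2, while knockout 2 had the highest Gdf15 and Tgfb1. On the log2(FPKM + 1) scale Gdf15 in knockout 2 was 1.2 above the knockout mean and in knockout 1 1.09 below it (a deviation of -1.09). Inhba in knockout 4 was 0.84 above its mean. For Ltbp3 and Tgfbr1 no knockout library deviated by more than 0.08. Knockout 4 also had the highest summed platelet markers (38.2 FPKM against 13.9 to 15.4 in the other knockout libraries, 6 genes), nearly all of it Pf4 (34.7 FPKM). The same library was highest in fibroblast markers (1711 against 1012 to 1348 FPKM, 8 genes) and red cell markers (6797 against 775 to 1818 FPKM, 3 genes). Its excess of atrial genes was larger still, with Myl7 at 726 FPKM against 2.50 to 61.6, Myl4 at 781 FPKM against 19.1 to 81.7 and Sln at 188 FPKM against 0.429 to 18.6. The part of these cells in the Tgfb3 and Inhba values was not tested.

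**Figure D4:**
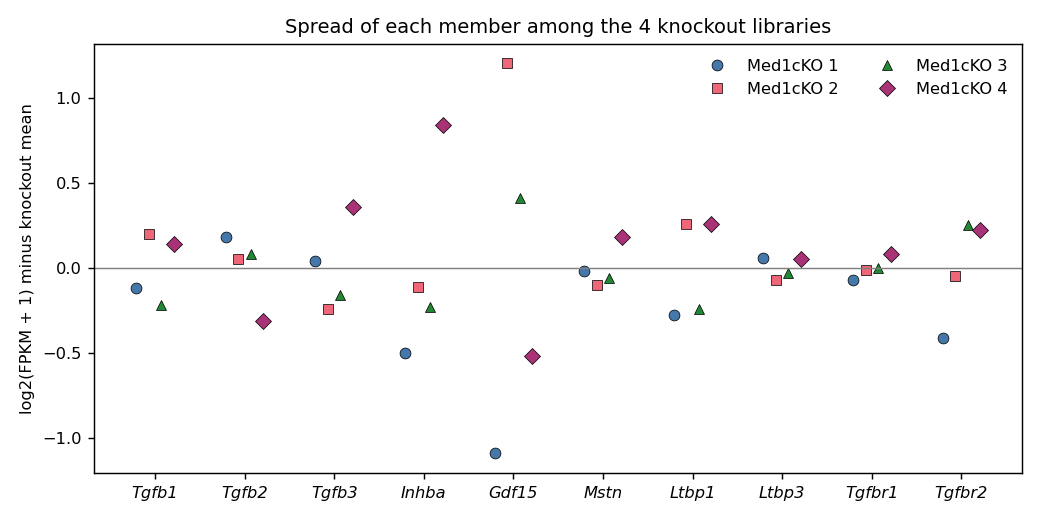
Deviation of each knockout library from the knockout mean, in log2(FPKM + 1), for the 10 members. Points for Ltbp3 and Tgfbr1 lie within 0.08 of 0, while those for Gdf15 run from -1.09 to 1.2.

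Markers of other cells that make these ligands gave the following levels. Of all genes tested, 44.9% were higher and 16.4% lower as deposited, and 27.0% and 26.9% after rescaling. Macrophage markers (8 genes in the table of 9) summed to 138 to 220 FPKM in the knockout and 194 to 266 FPKM in WT, and none of the 8 passed as deposited (3 lower after rescaling). Platelet markers (6 genes) summed to 13.9 to 38.2 and 22.2 to 35.7 FPKM, most of it Pf4, the only 1 that was tested. Pf4 did not pass as deposited but was lower after rescaling (log2 change -0.91, limma adjusted p = 0.0313). Fibroblast markers summed to 1012 to 1711 FPKM in the knockout and 841 to 1167 FPKM in WT, with 4 of 8 higher and none lower (2 higher after rescaling). The share higher as deposited, 50%, was near that of all genes. Endothelial markers (6 genes) overlapped in their sums at 236 to 304 and 243 to 298 FPKM, with 1 higher and 2 lower as deposited. After rescaling 4 were lower and none higher. Smooth muscle markers (6 genes) were at 2109 to 2328 FPKM in the knockout and 1010 to 1185 FPKM in WT, a sum carried by Des, which cardiomyocytes also express (1772 FPKM in the knockout mean, 763 in WT). Without Des the sums overlapped, at 329 to 707 and 240 to 391 FPKM. Of the 6, Des and Tagln were higher, Smtn was lower and Acta2, Myh11 and Mylk did not pass. Pericyte markers (6 genes) summed to 139 to 171 FPKM in the knockout and 227 to 264 FPKM in WT, but went both ways. Cspg4 and Pdgfrb were higher (Pdgfrb not after rescaling, limma adjusted p = 0.0643), and Rgs5, Kcnj8, Abcc9 and Vtn were lower. The call of Kcnj8 was lost without knockout 1 or 4 or WT 1, 2 or 4 (limma adjusted p 0.0939 to 0.104), and that of Rgs5 without WT 1 (0.0511). Red cell markers overlapped at 775 to 6797 and 870 to 4513 FPKM. Atrial cardiomyocyte markers (6 genes) summed to 5043 to 7934 FPKM in the knockout and 196 to 381 FPKM in WT, nearly all of it Nppa (6476 FPKM in the knockout mean). Without Nppa the other 5 summed to 6.995 to 8.95 FPKM in WT, to 24.7 to 172 FPKM in knockout 1 to 3 and to 1767 FPKM in knockout 4. Myl7, Myl4, Sln and Nppa were higher, and Bmp10 and Nr2f2 did not pass. Of the defining markers in these lists, none but Myog was at 0 in all libraries. The part of any of these cells in the Tgfb2, Tgfb3 and Gdf15 values was not tested.

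The rest of the pathway was read from 6 lists of signalling genes (other ligands, receptors, latency and activation, antagonists, SMADs and intracellular modulators). They hold 107 genes, of which 69 were tested. Of these 45 were higher and 6 lower as deposited, or 65.2% and 8.70%, beside 44.9% and 16.4% of all genes. Rescaled, 38 were higher and 7 lower, where 27.0% of all genes were higher and 26.9% lower. Of the 69, 10 reached the minimum only through the knockout and 1 only through WT. Among the other 58 genes 39 were higher, a share of 67.2%, beside 45.0% of all genes that reached 1 FPKM in both group means. With the target genes of TGF-beta and BMP and the stress genes, 9 lists in all, 75 of 110 tested genes were higher and 8 lower. These are 68.2% and 7.27%, beside 44.9% and 16.4% of all genes. Of the 97 that reached 1 FPKM in both group means, 67 were higher. The total includes TGF-beta target genes already known from these data to have risen, so it is no independent evidence of direction. No test compared the lists with other genes, and several genes stand in more than 1 list.

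**Figure D5:**
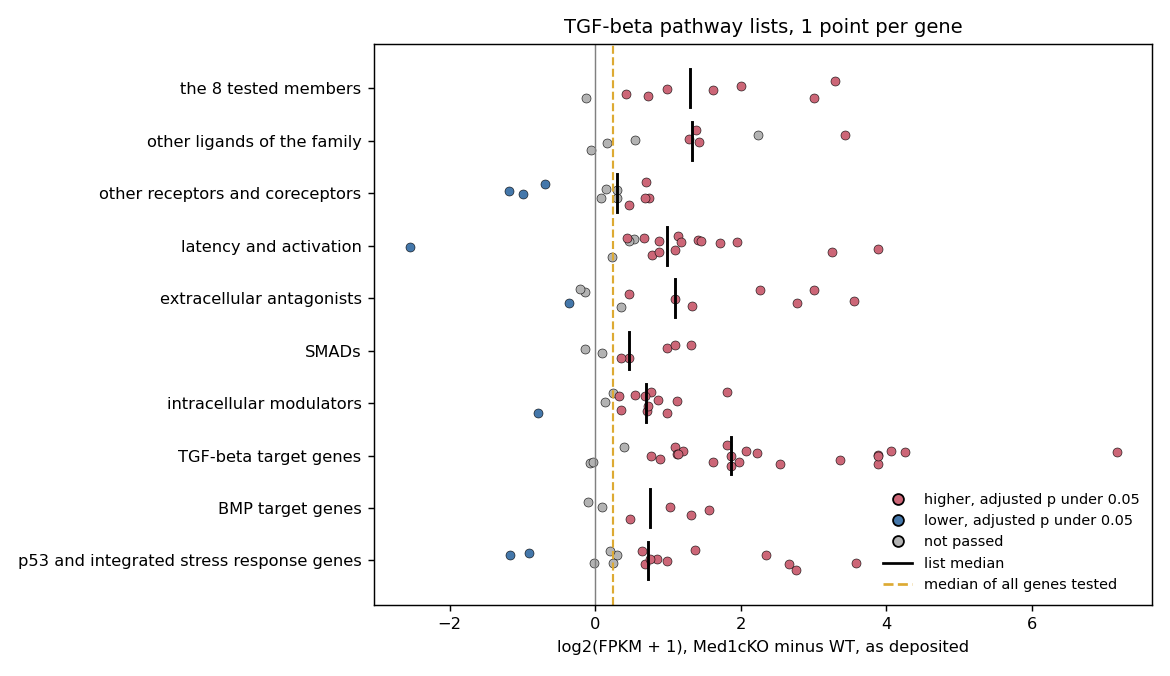
Log2 change (Med1cKO minus WT) of each tested gene in the pathway lists and of the 8 tested members; colours give the call as deposited, black lines list medians, the dashed line the median of all genes (0.25). List medians run from 0.30 for other receptors to 1.87 for TGF-beta target genes.

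Among the other ligands of the family, 8 of 26 were tested, 4 rose and none fell, with a median log2 change of 1.34. The share that rose was 50.0%, near the 44.9% of all genes. Of these 8, 4 reached the minimum only through the knockout, among them Gdf6, Inhbb and Bmp10. Among the other 4 genes 2 rose, Bmp4 and Bmp6, and the median was 0.73. Of all genes that reached 1 FPKM in both group means, 45.0% were higher. Gdf6, a growth factor of joints and skeleton, averaged 0.260 ± 0.104 FPKM in WT and 13.0 ± 4.22 in the knockout (SD, n = 4), a rise of 3.43 on the log2 scale (limma adjusted p = 2.27e-06). Bmp4 rose from 3.56 ± 0.578 to 11.4 ± 3.27 FPKM and Inhbb, the other main activin subunit gene, by 1.38 on the log2 scale. Bmp6 rose by 1.29. Bmp10, an atrial ligand, was listed at 0 in all 4 WT libraries and in knockout 2 and 3, and had 6.21 FPKM in knockout 1 and 66.0 FPKM in knockout 4 (adjusted p = 0.125).

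Receptors other than the members were divided. Of 11 tested among 17, 4 rose and 3 fell (2 and 3 after rescaling), with a median log2 change of 0.30, near that of all genes. The shares as deposited were 36.4% and 27.3%, beside 44.9% and 16.4% of all genes. Bmpr2, the type II receptor for BMPs, rose by 0.74 and Acvr1 by 0.70. Acvrl1 and Eng, which encode an endothelial type I receptor and its partner endoglin, rose by 0.46 and 0.69 as deposited and did not pass after rescaling (limma adjusted p = 0.0679 and 0.122). Without WT 4, Eng did not pass as deposited either (log2 change 0.62, limma adjusted p = 0.0533). The BMP coreceptor genes Rgma and Hfe2 fell by 1.19 and 0.99. Tgfbr3, which encodes the coreceptor betaglycan that presents TGF-beta 2 to Tgfbr2, averaged 13.8 ± 0.700 FPKM in WT and 8.44 ± 2.72 in the knockout (SD, n = 4). It fell by 0.69 on the log2 scale (limma adjusted p = 0.00623).

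Genes of latency and activation rose in 14 of 18 tested cases, with 1 lower (13 and 1 after rescaling). As deposited this was 77.8% and 5.56%, beside 44.9% and 16.4% of all genes. Of the 14 that reached 1 FPKM in both group means, 12 rose and none fell. Ltbp2, a matrix protein of the latent binding protein family, averaged 0.170 ± 0.0396 FPKM in WT and 16.6 ± 3.78 in the knockout (SD, n = 4), or 3.89 higher on the log2 scale (limma adjusted p = 3.69e-07). Ltbp2 reached the minimum only through its knockout libraries, and Itgb6, given below, only through WT. Thbs1, which encodes the activator thrombospondin 1, rose from 2.20 ± 0.676 to 34.6 ± 21.3 FPKM. The gene that fell was Itgb6, the integrin subunit that activates TGF-beta on epithelia, from 6.43 ± 1.18 to 0.261 ± 0.0875 FPKM (log2 change -2.55). Its partner Itgav rose by 1.71 and Itgb5 by 1.41. Furin, the protease that cleaves the propeptide, rose by 0.87, Fbn1, to whose fibrils the latent complex binds, by 1.95, and Ltbp4 by 0.78.

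Extracellular antagonists were 7 higher and 1 lower of 11 tested (6 and 1 after rescaling), or 5 and 1 of the 8 that reached 1 FPKM in both group means. For the 11 the shares as deposited were 63.6% and 9.09%, beside 44.9% and 16.4% of all genes. Fstl3, which traps activin and myostatin, had 0.413 ± 0.148 FPKM in WT and 15.8 ± 3.52 in the knockout (SD, n = 4), which is 3.55 higher on the log2 scale (limma adjusted p = 6.05e-07). The proteoglycan gene Bgn rose from 94.3 ± 10.7 to 649 ± 75.9 FPKM, and Fmod by 3.0 on the log2 scale. Fstl3 and Fmod reached the minimum only through their knockout libraries. Fstl1, a relative of follistatin, rose by 2.26. The antagonist gene that fell was Dand5 (log2 change -0.36).

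Inside the cell, 5 of 7 tested SMAD genes rose and none fell as deposited (4 and 1 after rescaling). The share that rose as deposited was 71.4%, beside 44.9% of all genes. The inhibitory SMAD genes Smad6 and Smad7, which BMP and TGF-beta signals induce, rose from 3.69 ± 0.293 to 11.04 ± 3.68 and from 4.17 ± 1.001 to 9.94 ± 1.80 FPKM (SD, n = 4). Smad1, which carries BMP signals, rose by 0.99 on the log2 scale and Smad2, which carries TGF-beta signals, by 0.46. Smad4, the common partner, had 0.35 as deposited and 0.08 rescaled, where it did not pass (limma adjusted p = 0.477). Smad3, the other TGF-beta SMAD, had -0.14 as deposited and did not pass, but fell by 0.38 rescaled (limma adjusted p = 0.0138). Among 14 intracellular modulators 11 rose and 1 fell (9 and 1 rescaled). As deposited these were 78.6% and 7.14%, beside 44.9% and 16.4% of all genes. Pmepa1, a feedback inhibitor, rose from 6.27 ± 0.555 to 24.6 ± 3.44 FPKM, the decoy receptor gene Bambi by 1.12 and the kinase gene Map3k7 by 0.99. Tab1, the partner of the Map3k7 kinase, fell by 0.78.

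Of 24 tested genes that TGF-beta is known to induce, 21 rose and none fell (20 rescaled), with a median log2 change of 1.87. The share that rose as deposited was 87.5%, beside 44.9% of all genes. Of the 22 that reached 1 FPKM in both group means, 19 rose. This list holds genes already known from these data to have risen, such as Cnn1 and Postn, so its count is no independent evidence of its direction. Cnn1, a smooth muscle protein, had 1.28 ± 0.157 FPKM in WT and 331 ± 62.0 in the knockout (SD, n = 4). Lox, which cross-links collagen, rose from 1.72 ± 0.486 to 51.7 ± 13.8 FPKM and Postn, a matricellular protein, from 29.0 ± 4.34 to 507 ± 117 FPKM. Ctgf, a classic early target, rose by 3.36 on the log2 scale, and the transcriptional repressor gene Skil by 0.76. Acta2, the myofibroblast actin, did not pass, at a log2 change of -0.07 (limma adjusted p = 0.804). Its libraries ran from 162 to 305 FPKM in WT and from 188 to 302 FPKM in the knockout. Of 6 tested BMP target genes, 4 rose and none fell (3 rescaled), or 3 of the 5 that reached 1 FPKM in both group means. For the 6 the share that rose as deposited was 66.7%, beside 44.9% of all genes. Id2 rose by 1.56, Smad6 as given above and Id4, which reached the minimum only through its knockout libraries, by 1.03. Id3 rose by 0.48 as deposited and did not pass rescaled (limma adjusted p = 0.183), and Id1 had 0.10 and did not pass.

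The authors' deposited table compared pooled FPKM per group. It called 7 members higher and Ltbp1 lower, did not call Tgfb1 and did not test Mstn. In it 23.1% of 12539 testable genes were called higher and 22.8% lower. Its pooled WT level was 1.28 to 1.29 times the mean of the WT libraries for each of the 10 members, and its pooled knockout level 1.04 to 1.07 times the mean of the knockout libraries. For each member its ratio of knockout to WT is thus smaller than that of the library means. Median-of-ratios scaling moves the groups the same way. It divided the knockout libraries by 1.07 to 1.12 and the WT libraries by 0.886 to 0.921. That table is therefore nearer in scaling to the rescaled values than to those as deposited.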

How the data were processed

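Stranded libraries were prepared from ventricular poly(A) RNA, per the labels' protocols. TopHat (version 1.0.0), Cufflinks, Cuffdiff and the mm10 build are named in the submitters' processing notes. The files the authors deposited hold FPKM for each gene in each library and a second table of pooled FPKM, log2 fold changes, p-values, q-values and a test score, per the file headers. The score was not used. In 312 rows a word stood in place of values, and 0.001 FPKM, the authors' code for 0, was set to 0. The gene annotation, and whether counting used strand, are not stated there. FPKM moves when other genes take more of a library's fragments. Starts were shifted from 0-based to 1-based positions.

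Groups and replicate numbers come from the labels' titles, and columns matched the descriptions. The test was limma (version 3.58.1, R 4.3.3) with an intensity trend on log2(FPKM + 1) for the 11975 genes averaging 1 FPKM or more. A gene was called at a two-sided Benjamini-Hochberg adjusted p under 0.05. Changes are knockout minus WT. The procedure was tested on simulated data. Ratios were tested by exact permutation of libraries. Alternatives were a pseudocount of 0.1 FPKM, no minimum, median-of-ratios scaling, quantile normalization, no trend, a replicate block and each library left out. The members and lists were chosen with earlier results of these data known. Named genes were the members, Med1, the 3 called genes of each pathway list with the largest change and, for the 3 members with the largest change, the 3 genes of most similar deviations. Other genes named were chosen after their values were seen: Bmp6, Bmp10, Acvr1, Acvrl1, Tgfbr3, Eng, Itgav, Itgb5, Furin, Fbn1, Ltbp4, Fstl1, Tab1, Dand5, Smad2, Smad3, Smad4, Ctgf, Skil, Acta2, Id1, Id3, Ccng1, Chac1, Atf4, Ddit3, Trp53, the single marker genes and, below, Tagln and Timp1. Some values are not reported here.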

Additional observations from a re-analysis of the deposited data

Results flagged for a closer look

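In each group of 4 libraries, the gap between the highest or lowest library and its nearest neighbour was compared with the group's range. Of 188 such groups (members, named genes, marker sums and ratios), 15 had a library further off than Dixon's 95% critical value for 4 samples. Chance gives about 1 in 20 for independent groups picked without sight of their values. Here some genes were named after their values were seen, and some also enter the marker sums. The 15 can therefore not be read against that rate. None was a group of a member or a ratio. Knockout 4 was far from the other knockout libraries in 9 cases. It had 66.0 FPKM of Bmp10 against 0 to 6.21, 333 FPKM of Tagln against 96.3 to 101, and 166 FPKM of Timp1 against 22.9 to 37.7. Its Tab1 value was 5.66 FPKM against 6.91 to 6.96, and its platelet markers summed to 38.2 FPKM against 13.9 to 15.4. It also had 726 FPKM of Myl7 against 2.50 to 61.6, 781 FPKM of Myl4 against 19.1 to 81.7, 188 FPKM of Sln against 0.429 to 18.6 and 31.4 FPKM of Pdgfrb against 27.9 to 28.4. Knockout 1 had 4.22 FPKM of Dand5 against 5.09 to 5.23. Knockout 3 had 5043 FPKM of summed atrial markers against 7467 to 7934. In WT, replicate 4 had 64.2 FPKM of Abcc9 against 74.5 to 76.6, replicate 3 had 0.105 FPKM of Gdf6 against 0.307 to 0.323, replicate 2 had 298 FPKM of summed endothelial markers against 243 to 250, and replicate 1 had 266 FPKM of summed macrophage markers against 194 to 198.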

How the results depend on the processing

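Tgfb2, Tgfb3, Gdf15, Ltbp3, Tgfbr1 and Tgfbr2 kept their direction and their call under every alternative run. The call of Tgfb1 was lost under median-of-ratios scaling (0.18) and quantile normalization (0.19) and held under the others. Over all genes, 3237 were higher and 3223 lower after rescaling and 3432 and 3066 after quantile normalization, against 5372 and 1964 as deposited. With each library left out in turn, log2 changes ran from 0.37 to 0.51 for Tgfb1, 3.24 to 3.40 for Tgfb2, 1.89 to 2.08 for Tgfb3, 2.60 to 3.36 for Gdf15, 1.58 to 1.66 for Ltbp3, 0.96 to 1.01 for Tgfbr1, 0.63 to 0.85 for Tgfbr2 and -0.21 to -0.03 for Ltbp1. The Tgfbr2 to Tgfbr1 ratio ran from -0.42 to -0.21. Id1, which never passed, had -0.18 rescaled, -0.17 quantile normalized and -0.02 to 0.17 with a library left out, and Acta2 had -0.26 to 0.04. The replicate numbers did not pair the samples: same-numbered libraries had correlations of deviations of 0.14, 0.0325, -0.0409 and -0.0138, and only the libraries numbered 1 correlated best with their own number. With the replicate block, 5089 genes were higher and 1867 lower, and no call of a member changed. An exact sign-flip test over the 4 numbered pairs cannot go below 0.125, the p it gave for the ratios of Tgfb2 to Tgfb1 (3.31), Tgfb3 to Tgfb1 (1.71) and Ltbp1 to Ltbp3 (-1.87). FPKM keeps no fragment counts, so the precision of levels near 0, as for Gdf15 and Inhba in WT and for Mstn, is unknown.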
